A study of Caenorhabditis elegans with 4 samples.

Results

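The genes described here are 6 little-studied protein-coding genes of the nematode Caenorhabditis elegans, measured on 2 bacterial diets. They carry sequence names, that is, names made from a genomic clone and a running number, which are given to genes before a function or family earns them a gene name. They were taken from a list of 46881 genes for the size of their difference between the diets, so the difference itself is a description and carries no test. Y53G8AM.5, C23G10.11, T22F3.11, Y62F5A.10 and F46C5.1 were the 5 largest rises among 3900 sequence-named protein-coding genes with a mean of at least 5 CPM, counts per 1000000 counted reads after TMM scaling, and K02E11.10 had one of the largest falls. All 6 passed the filter on low counts. Over all 14967 tested genes 14.6% were higher and 15.2% were lower on the B. subtilis diet at an adjusted p of 0.05, a background from which nothing is read about genes that were picked by the same contrast.

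The worms were wild-type Bristol N2 hermaphrodites, 3 days old when moved to the test plates and kept there for 1 day. The OP50 group ate Escherichia coli OP50, the usual laboratory food. The other group ate Bacillus subtilis natto MI-OMU01, a strain of the bacterium that ferments soybeans into natto. About 200 whole worms per group were collected, and each group held 2 libraries of 16962082 to 24381952 counted reads. Log2 levels correlated at r = 0.994 and 0.995 between the libraries of a group, across tested genes, which are not independent replicates. Whether both libraries of a group are separate cultures is not said in the labels; the spread behind each p-value is theirs and may be technical.

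C. elegans eats bacteria, and its intestine both digests them and answers them with secreted lysozymes, lectins and proteases. Many genes that respond to a change of bacteria are small, specific to nematodes and arranged in tandem clusters of related copies, and a large share of them have never been given a function. The identifiers, positions and neighbours of the 6 genes are therefore given with their values. Of the 6, Y53G8AM.5 has a gene name in the Ensembl release 115 annotation, nspg-7.2, which places it in group G of the nematode-specific peptide families. The other 5 still carry the sequence name.

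Y53G8AM.5 (WBGene00021805) lies on chromosome III at 3256730 to 3258395 of WBcel235, on the minus strand, with 6 exons of 690 bases in all. It had 0 reads in both OP50 libraries and 635 and 919 reads in MI-OMU01 replicates 1 and 2. These counts are 34.4 and 36.1 CPM, so the MI-OMU01 libraries lay within 1.05-fold of each other while OP50 gave no read. With a floor of 3 counts set for both OP50 libraries together, it was at least 386-fold higher on MI-OMU01 (8.59 on the log2 scale). The bound depends on that floor: the exact 95% interval of the ratio of summed counts began at 314, and with OP50 replicate 1 or 2 left out the bound was 7.56 or 7.59 on the log2 scale. Of the 11 tested protein-coding genes with no OP50 read it had by far the most reads on MI-OMU01, 1554 against 134 for the next, Y53G8AL.3, which lies 3586 bases away.

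C23G10.11 (WBGene00016017) is a short gene on chromosome III, at 6215164 to 6215576 on the minus strand, with 2 exons of 362 bases in all. On OP50 it had 3 and 5 reads, and on MI-OMU01 228 and 226. On the CPM scale these are 0.184 and 0.304 against 12.4 and 8.88. The groups did not overlap, and the fitted difference was 42.1-fold (log2 fold change 5.40). Since this contrast chose the genes, separation of the groups, here and below, is a description only. The share of all tested genes whose groups separate is not given here. With only 8 OP50 reads the counting interval of the ratio was wide, from 21.3 to 98.6.

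T22F3.11 (WBGene00020700) lies on chromosome V at 3612173 to 3614551, on the minus strand, with 5 exons of 1683 bases in all. It was the most abundant of the 6 on MI-OMU01. Its counts were 105 and 81 on OP50 and 2654 and 6803 on MI-OMU01, or 6.44 and 4.93 CPM against 144 and 267 CPM. All MI-OMU01 values were above all OP50 values, but the MI-OMU01 libraries stood 1.86-fold apart. The fitted difference was 36.2-fold (log2 fold change 5.18).

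Y62F5A.10 (WBGene00013388) lies on chromosome II at 11521599 to 11523196, on the plus strand, with 5 exons of 1413 bases in all. It had 10 and 14 reads on OP50 and 412 and 530 on MI-OMU01, which are 0.613 and 0.853 CPM against 22.3 and 20.8 CPM. The groups did not overlap and the MI-OMU01 libraries were close. The fitted difference was 29.1-fold (log2 fold change 4.87), with a counting interval of the ratio from 19.5 to 45.9.

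F46C5.1 (WBGene00009778) lies on the same chromosome at 8820149 to 8821248, on the minus strand, with 4 exons of 764 bases in all. Its counts were 11 and 16 on OP50 and 361 and 654 on MI-OMU01, or 0.675 and 0.974 CPM against 19.6 and 25.7 CPM. The groups did not overlap, and the higher MI-OMU01 library was 1.31-fold above the other. The fitted difference was 27.3-fold (log2 fold change 4.77), with a counting interval of 19.1 to 42.7.

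K02E11.10 (WBGene00044109) went the other way. It lies on chromosome V at 14239942 to 14241151, on the minus strand, as 1 exon block of 1210 bases. The release 115 annotation places it at 14240069 to 14241151, so its 3' end differs. It had 1481 and 1595 reads on OP50 and 43 and 36 on MI-OMU01. On the CPM scale the OP50 libraries stood at 90.9 and 97.1 and the MI-OMU01 libraries at 2.33 and 1.41, so the lowest OP50 value was 39.0 times the highest MI-OMU01 value. The fitted log2 fold change was -5.69, a 51.6-fold lower level (counting interval of the ratio from 41.8 to 66.2), and it ranked ninth by fall among all 14406 tested protein-coding genes.

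**Figure D1:**
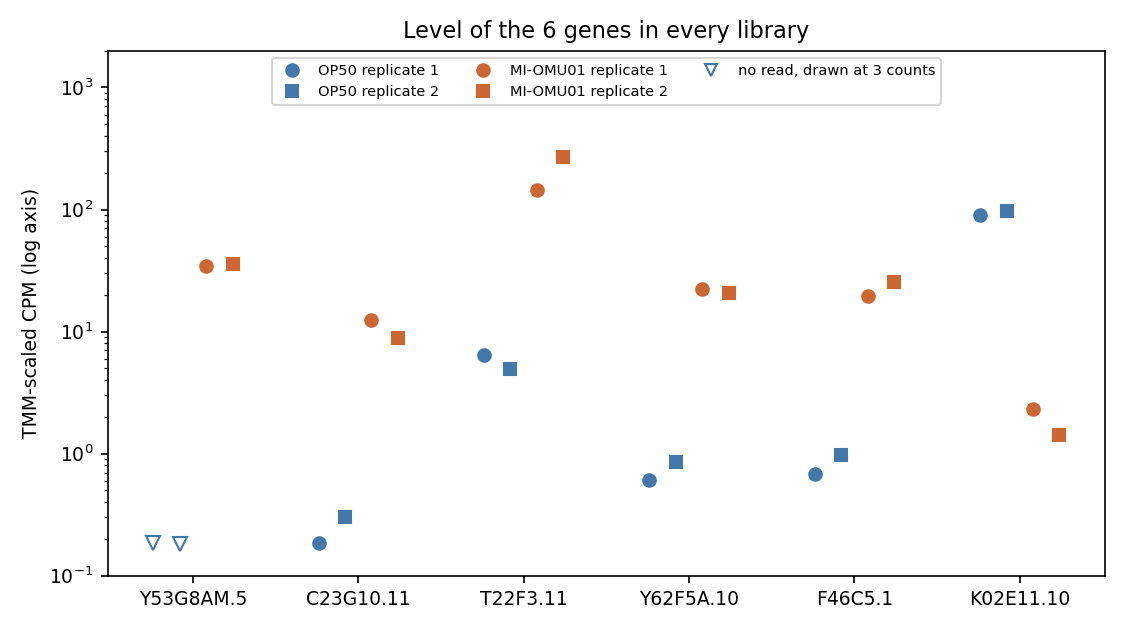
Level of the 6 genes in each of the 4 libraries, as TMM-scaled CPM on a log axis; circles are replicate 1, squares replicate 2, blue OP50 and orange MI-OMU01, and open triangles mark libraries with no read, drawn at the CPM of 3 counts in that library. For 5 genes both MI-OMU01 libraries lie above both OP50 libraries, and for K02E11.10 both lie below. The genes were chosen by this contrast, so their separation is a description and no result.

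Levels of different genes can be set side by side once divided by exon length. In CPM per kilobase on OP50, K02E11.10 stood at 77.7, higher than 90.2% of the tested genes. The other 5 were low there, from 0 for Y53G8AM.5 to 3.38 for T22F3.11. On MI-OMU01 the order in CPM per kilobase was T22F3.11 at 122.2, Y53G8AM.5 at 51.1, F46C5.1 at 29.6, C23G10.11 at 29.3, Y62F5A.10 at 15.3 and K02E11.10 at 1.55. T22F3.11 was then higher than 94.7% of the tested genes and Y53G8AM.5 higher than 85.1%, while K02E11.10 was higher than only 14.2%. F46C5.1 and C23G10.11, neighbours in that order, lay closer together than the libraries of either gene. The genes that were high on MI-OMU01 thus ran from 57.1% (Y62F5A.10) upward in the ranking of levels on that diet, and none of these 5 was above 28.3% on OP50.

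Agreement between the libraries of a group differed among the 6. On MI-OMU01 the libraries of T22F3.11 were 0.89 apart on the log2(CPM + 0.5) scale, more than each of 917 tested genes of like level (within 1.5-fold), whose median distance was 0.08. C23G10.11 (0.46 lower in replicate 2) and F46C5.1 (0.38 higher in replicate 2) were also farther apart than most, above 94.0% and 94.4% of genes of like level. Y53G8AM.5 and Y62F5A.10, at 0.07 and 0.10, were closer than the median of genes of like level. On OP50 the distances of the 5 genes with reads ran from 0.10 for K02E11.10 to 0.35 for T22F3.11, and none reached the 90th percentile of genes of like level. The MI-OMU01 library with the higher T22F3.11 level was replicate 2, which also held the higher F46C5.1 level and the lower C23G10.11 level, so replicate 2 was neither the higher nor the lower library for all of them. K02E11.10, at 0.56 lower in replicate 2, was farther apart than 87.8% of genes of like level.

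**Figure D2:**
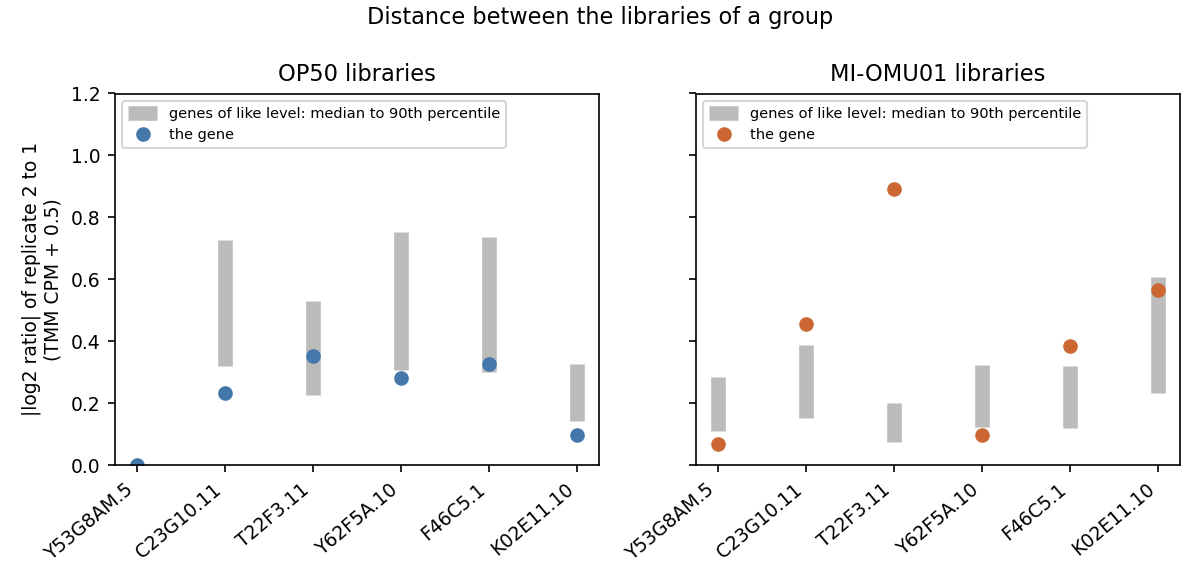
Distance between the 2 libraries of a group for each gene (points), as the absolute log2 ratio of replicate 2 to replicate 1 on TMM CPM + 0.5; grey bars run from the median to the 90th percentile of tested genes within 1.5-fold of the same level. T22F3.11 on MI-OMU01 stands far above its bar at 0.89, and no OP50 point lies above its bar.

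Values just past the choice were as follows. After F46C5.1 at 27.3-fold came W03F9.4 at 20.7-fold, Y41C4A.32 at 20.4-fold and Y65B4BR.1 at 16.8-fold. On MI-OMU01 W03F9.4 had a mean of 584 CPM, above that of each of the 6. On OP50 its mean was 28.1 CPM, below the 94.0 CPM of K02E11.10. These levels are not divided by exon length. The fit also placed 12 sequence-named genes with a mean below 5 CPM above F46C5.1, with 27 to 198 reads over both MI-OMU01 libraries and at most 2 over both OP50 libraries. Their place is not resolved at this depth: 6 of them had no OP50 read, and for 5 of these the lower bound was below the 27.3-fold of F46C5.1. For Y53G8AL.3 the bound, with the floor of 3 counts, was 33.3-fold, inside the counting interval of F46C5.1 (19.1 to 42.7). Among the falls, T06E4.12 lay beyond K02E11.10 at 60.6-fold lower, followed by T24B8.5 at 45.1-fold and Y46G5A.29 at 28.6-fold. The annotation now calls T06E4.12 idpc-3 and T24B8.5 sysm-1, so among genes of this level that still carry a sequence name K02E11.10 came first. Below the level minimum, ZK218.11 had 113 and 90 reads on OP50 and none on MI-OMU01, at least 90.8-fold lower with 3 counts set for both MI-OMU01 libraries together, and Y48E1B.8 had 17 and 16 reads against none (at least 14.8-fold lower).

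**Figure D3:**
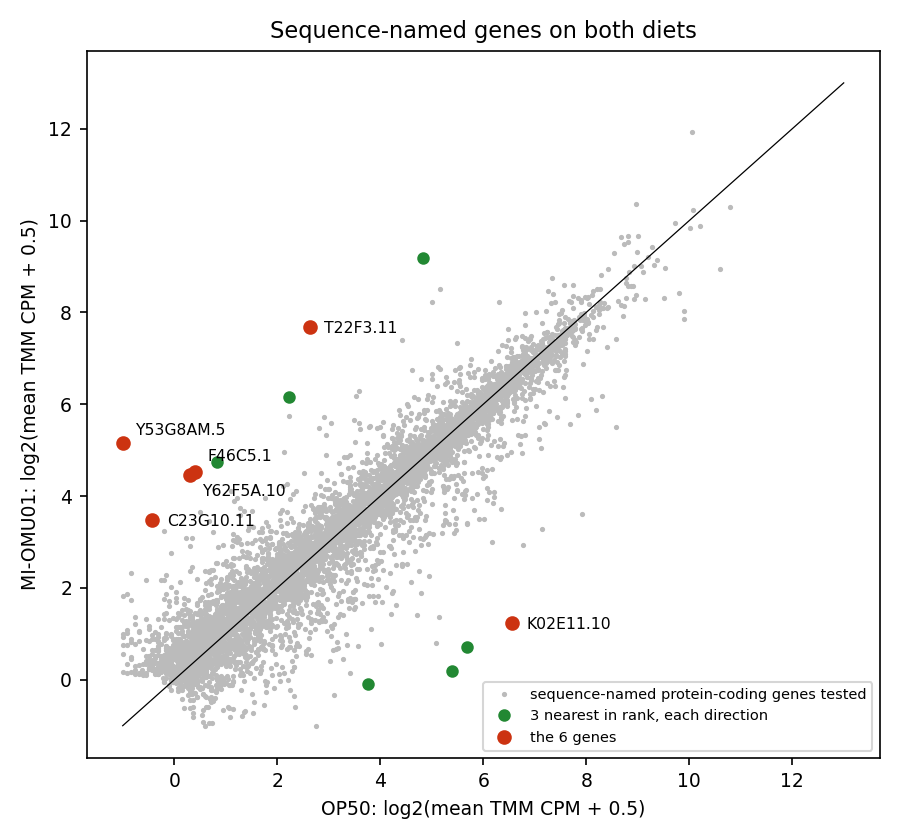
Mean level of each sequence-named protein-coding gene tested on OP50 (x axis) and MI-OMU01 (y axis), both as log2(mean TMM CPM + 0.5); the line marks equal levels, red points are the 6 genes and green points the 3 genes nearest to them in rank in each direction. The red points of the genes that were higher lie far above the line and K02E11.10 far below it, among 6569 genes drawn.

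The class these genes come from moved in both directions. Of the other 6563 sequence-named protein-coding genes tested, 1006 (15.3%) were higher and 879 (13.4%) lower on MI-OMU01, near the background of 14.6% and 15.2%. Of 7837 protein-coding genes with a gene name, 13.5% were higher and 17.5% lower. The median log2 fold change was 0.06 in the sequence-named class and 0.03 over all genes tested. The split over all genes depended on the scaling, with 2178 higher and 2271 lower under TMM and 3206 higher and 1706 lower when libraries were scaled by their totals alone.

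The neighbours of the 6 genes were chosen by position alone, 5 protein-coding genes on each side, so their differences could be tested. Of these 60 genes 46 had enough reads. In edgeR's quasi-likelihood test 6 were higher and 6 lower on MI-OMU01, or 13.04% each way, near the background of 14.6% and 15.2%, and scaling by library totals alone gave 9 higher and 5 lower. With at least a 2-fold change 5 were higher, 10.9% against a background of 6.45%, and 2 were lower, where the background was 6.34%. These 5 rises lay in 3 places, beside Y53G8AM.5, C23G10.11 and T22F3.11, on the same strand as the gene they neighbour, as did 27 of the 46 tested neighbours. The strands were compared after the values had been seen and their difference was not tested. Of the 8 tested genes that adjoin one of the 6 directly, 3 were higher and 1 was lower, a count taken after the values had been seen.

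Y53G8AM.5 stood in a row of minus-strand genes of which the next 2 downstream also rose. Y53G8AM.4, 1110 bases away, had 1 and 2 reads on OP50 and 14 and 42 on MI-OMU01, a log2 fold change of 3.67 (SE 0.73, adjusted p = 0.000638). Leaving out MI-OMU01 replicate 2 ended that call (adjusted p = 0.0547). Y53G8AL.3, the next gene along, had no OP50 read and 57 and 77 on MI-OMU01, at least 33.3-fold higher by the same floor (adjusted p = 3.33e-07). Beyond it Y53G8AL.4 had 5 and 2 reads against 11 and 19 and did not pass (adjusted p = 0.0647). On the upstream side Y53G8AM.6 had 2 reads in all libraries together and was not tested, and Y53G8AM.7 did not pass (adjusted p = 0.361).

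By its current name Y53G8AM.5 has relatives elsewhere in the genome. The annotation lists 13 other nspg genes, a list drawn up after the name was seen, and all 13 had enough reads. Of these nspg-8 rose (log2 fold change 0.85, SE 0.16, adjusted p = 0.000322), from a mean of 12.53 to 22.6 CPM, and nspg-14 fell (log2 fold change -0.50, adjusted p = 0.00111). The other 11 did not pass, and the median of the 13 was -0.15. Each direction thus held 1 of these 13 genes (7.69%), against 14.6% higher and 15.2% lower over all genes tested. With the DESeq2 size factors, no filter on low counts or the replicate block, 2 of them were lower. The gene with the nearest name, nspg-7.1, was abundant on both diets, with 3427 and 3589 reads on OP50 and 3119 and 4717 on MI-OMU01 (log2 fold change -0.27, adjusted p = 0.0516). How counting treated reads that match several genes is not stated and no sequences were compared, so the split of reads within the family is uncertain.

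C23G10.11 had 1 risen gene beside it. C23G10.10, 1240 bases downstream on the same strand, had 6 and 5 reads on OP50 and 76 and 101 on MI-OMU01, or 0.368 and 0.304 CPM against 4.12 and 3.97 CPM. Its log2 fold change was 3.56 (SE 0.39, adjusted p = 7.37e-07). Farther off, 3 neighbours fell by less than 1.5-fold. These were rps-3, a protein of the small ribosomal subunit (log2 fold change -0.49, adjusted p = 0.00195), C23G10.2 (-0.53, adjusted p = 0.00396) and esyt-2, an extended synaptotagmin (-0.34, adjusted p = 0.0383). Without MI-OMU01 replicate 1 the adjusted p of rps-3 was 0.0543 and that of C23G10.2 was 0.0687. The call on esyt-2 ended without either MI-OMU01 library or OP50 replicate 2 (adjusted p from 0.0846 to 0.285), and with DESeq2 (0.0552), a filter of 5 CPM (0.0600) or total counts as library sizes (0.209). The adjoining gene on the other side, hot-4, did not pass (log2 fold change 0.04, SE 0.30).

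T22F3.11 ended a row of minus-strand genes from the same clone, of which the next 2 downstream were past the threshold. Differences between the steps were not tested. T22F3.10, 1245 bases downstream, stood at 2.15 and 3.23 CPM on OP50 and 5.47 and 8.29 CPM on MI-OMU01, a log2 fold change of 1.37 (SE 0.27, adjusted p = 0.000721). Like T22F3.11, it was higher in MI-OMU01 replicate 2 than in replicate 1. T22F3.8 came next at a log2 fold change of 1.04 (SE 0.38, adjusted p = 0.0462), and its call was lost when OP50 replicate 1 or any MI-OMU01 library was left out (adjusted p up to 0.250), as it was with DESeq2 (0.213), its size factors (0.0519) and no filter on low counts (0.0626). T22F3.7 did not pass (log2 fold change 0.32, adjusted p = 0.636). On the upstream side srx-93, of a chemoreceptor family, had no read in any library, and the next 2 genes had too few reads to test. F59B1.2, 18789 bases away on the other strand, rose by 1.47-fold (adjusted p = 0.000569).

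Y62F5A.10 lies wholly inside a gene of the insulin pathway. Its host is age-1, the catalytic subunit of the phosphoinositide 3-kinase that acts below the insulin receptor DAF-2. Y62F5A.10 fills most of intron 6 of age-1 (11521469 to 11523213), on the opposite strand, with 130 bases to spare on one side and 17 on the other and no base shared between exons. The host stood at 82.3 and 68.4 CPM on OP50 and at 78.4 and 77.2 CPM on MI-OMU01 (log2 fold change 0.05, SE 0.12, adjusted p = 0.819). Its levels on both diets overlapped, while those of Y62F5A.10 in the same libraries lay 24.4-fold or more apart. Since strand use in counting is not stated, reads from this intron of age-1 could be counted for Y62F5A.10, which was not tested. Across the alternatives the adjusted p of age-1 itself stayed between 0.277 and 0.973. The gene on the far side, mdt-8, a Mediator subunit, did not pass either (log2 fold change 0.07, adjusted p = 0.711). Of the other neighbours 1 passed, F54D5.12 (dhgd-1, a D-2-hydroxyglutarate dehydrogenase), which fell by 1.86-fold (adjusted p = 2.57e-06).

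**Figure D4:**
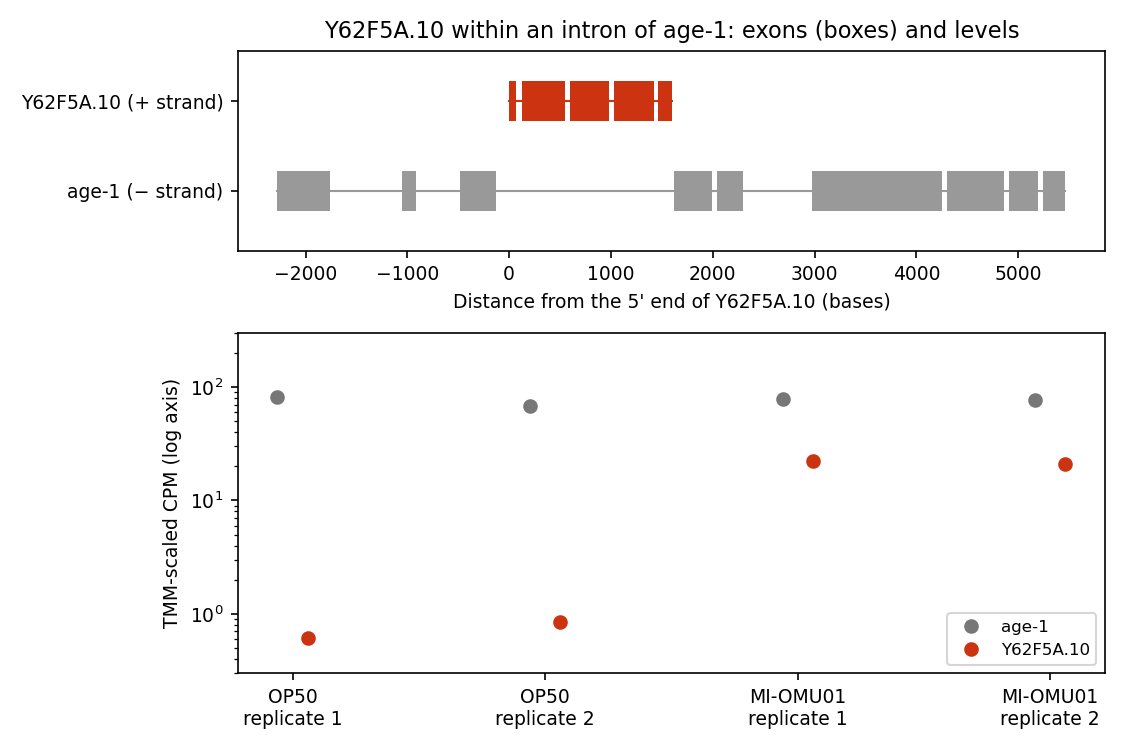
Top, exons (boxes) of Y62F5A.10 and of its host age-1 by distance in bases from the 5' end of Y62F5A.10; bottom, TMM-scaled CPM of both genes in the 4 libraries on a log axis. The nested gene sits between exons of age-1, and its points move from below 1 CPM on OP50 to above 20 CPM on MI-OMU01 while age-1 stays between 68.4 and 82.3 CPM.

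F46C5.1 had a neighbour that went the other way. F46C5.10, 1722 bases downstream on the same strand, stood at 7.30 and 8.10 CPM on OP50 and 1.84 and 1.65 CPM on MI-OMU01, a 4.42-fold fall (log2 fold change -2.14, SE 0.25, adjusted p = 1.75e-06). Between the genes lies the long non-coding RNA linc-72, on the opposite strand, whose exon shares 6 bases with the last exon of F46C5.1. It had 12 and 10 reads on OP50 and 3 and 2 on MI-OMU01 (log2 fold change -2.49, SE 0.71, adjusted p = 0.0114), the reverse of F46C5.1. Strand use in counting is not given in the sources used here, so reads over the shared bases could belong to either gene. The fifth gene downstream, pho-13, of an acid phosphatase family, fell by 4.28-fold (adjusted p = 1.94e-07). The adjoining upstream gene nas-25, an astacin metalloprotease, did not pass (adjusted p = 0.613).

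Of the 10 neighbours of K02E11.10 7 had enough reads, and none of the 7 passed in either direction. Under other settings 4 of the 7 passed: K02E11.4 and T16A9.5 were higher with libraries scaled by their totals (adjusted p = 0.0198 and 0.0231), K02E11.4 also with a filter of 5 CPM (0.0460), and nep-21 and K02E11.3 were lower without OP50 replicate 1 (0.0447 and 0.0127). The adjoining genes, the nucleoside transporter gene ent-3 and the chemoreceptor-like gene sre-7, had 35 and 5 reads in all libraries together and were not tested. The nearest tested gene upstream, K02E11.3, stood at a log2 fold change of -0.66 (SE 0.35, adjusted p = 0.176).

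**Figure D5:**
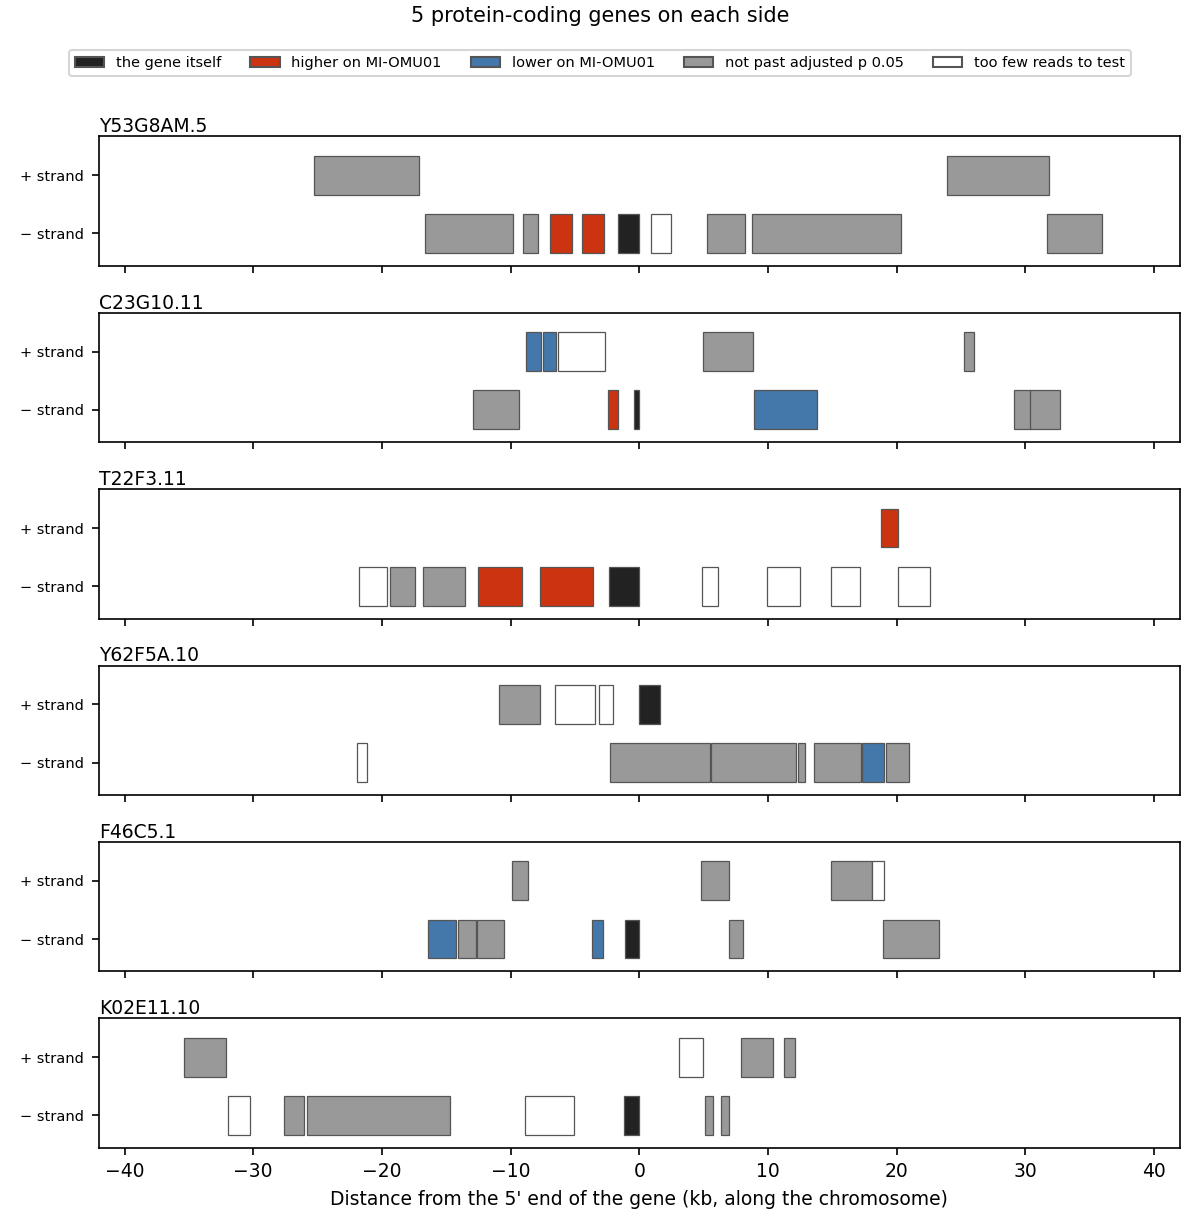
The 5 protein-coding genes on each side of each of the 6 genes (black), placed by distance in kb from the gene's 5' end and by strand; red boxes were higher and blue boxes lower on MI-OMU01 at an adjusted p of 0.05, grey boxes did not pass and white boxes had too few reads. Red boxes adjoin Y53G8AM.5, C23G10.11 and T22F3.11 on the same strand, 1 farther red box near T22F3.11 (F59B1.2) lies on the other strand, and K02E11.10 has neither red nor blue.

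Genes whose levels were most like those of the 6 over the 4 libraries were found by the distance of log2(CPM + 0.5) values, a description of likeness only. The gene nearest to Y53G8AM.5 was the C-type lectin gene clec-9 (distance 0.34), with 28.5 and 33.4 CPM on MI-OMU01. Y62F5A.10 and F46C5.1 were each other's nearest (distance 0.38), followed for both by Y41C4A.32. For C23G10.11 they were T16G1.6, the lysozyme gene lys-5 and cpr-2, a gene of the cathepsin B-like proteases, at distances of 0.89 to 0.96. For T22F3.11 they were the lysosomal lipase gene lipl-1 at 1.45 and the lectin gene clec-60 at 1.92. For K02E11.10 they were the collagen genes col-161 (1.03) and col-13 (1.05), then T24B8.5 (1.47).

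Marker lists show what else moved in these whole worms, where fewer cells of a type and less RNA per cell cannot be told apart. The counts below stand against 14.6% higher and 15.2% lower over all genes tested. The lists were written with earlier results of these data known, so the counts are descriptions. Of 25 tested genes known to respond to bacteria 15 were higher, among them ilys-2 (log2 fold change 9.43) and clec-9, and 4 were at least 2-fold lower (irg-5, T24B8.5, K08D8.5 and C17H12.8). Of 9 intestinal genes 5 were higher and 2 lower, and their summed level went from 5062 and 5553 CPM on OP50 to 9901 and 10300.5 CPM on MI-OMU01, most of it the aspartyl protease gene asp-1. All 7 tested hypodermal and cuticle genes and all 7 moulting genes fell, with summed levels of 2571 and 2901 CPM against 734 and 740.2 CPM for the former and 1296 and 1556 against 587 and 514 for the latter. Of the others, the higher and lower genes numbered 4 and 2 of 7 in the pharynx, 0 and 3 of 5 in body wall muscle, 2 and 0 of 6 in neurons, 0 and 1 of 8 in the germline, 1 and 0 of 5 in sperm and none in 6 embryonic and 3 coelomocyte genes. No matched marker was at 0 in all libraries. The part of these shifts in the values of the 6 genes was not tested.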

How the data were processed

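Poly(A) RNA of 4 libraries of whole worms was sequenced. The authors deposited 1 table per library of raw counts, whole numbers of reads for each gene. The submitters' processing notes list STAR 2.7.2b, featureCounts 1.6.4, cutadapt 2.7, Trimmomatic 0.39 and Trim Galore 0.6.5, and the builds ce11 and WBcel235. Whether counting used strand, and what it did with reads of several places, is not stated there.

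Of 46881 genes, 46794 matched the Ensembl annotation by identifier. Genes that passed filterByExpr (at least 10 counts, 15 in total) were scaled with TMM (factors 0.962 and 0.948 for OP50, 1.05 and 1.04 for MI-OMU01) and tested with edgeR 4.0.16 in R 4.3.3, by a robust quasi-likelihood fit with diet as the only term. P-values were adjusted by Benjamini-Hochberg over 14967 genes, at a threshold of 0.05. An SE is the absolute log2 fold change divided by the square root of F. The fit was run on simulated data in which every gene had the same dispersion, which checks the code and not its error rate on these data.

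The 6 genes and all lists were chosen with earlier results of these data known, and the only contrast of the series chose the genes, so they carry no p-value. Tests were made on genes taken by position or name. Named are the 6 genes, overlapping, adjoining and significant neighbours, the 3 genes most like each, the 3 nearest in rank and up to 2 genes of each marker list, not all of them printed; nspg genes and the untested or non-significant neighbours beyond these were named after their values were seen. Intervals (95%, exact binomial on summed reads) and the floor of 3 counts cover counting error only. They leave out the spread between the libraries of a group, so they may be too narrow. Across tested genes that spread was larger than counting error, with a chi-square per gene of 10.9 on OP50 and 10.1 on MI-OMU01. No molecular identifiers are recorded. Alternatives were DESeq2 1.42.0, its size factors or total counts in edgeR, other filters, each library left out and a replicate block. Planned comparisons of protein and promoter sequences were not run.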

Additional observations from a re-analysis of the deposited data

How the results depend on the processing

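None of 58 values of the 6 genes under the alternatives reversed. There were 10 for each of 5 genes and 8 for the bound of Y53G8AM.5, which was not computed with DESeq2 or the replicate block. The genes were chosen for large differences in these same libraries, and the bound rests on a fixed floor. A reversal was therefore hardly possible, and its absence is no support. The log2 fold change ran from 5.05 to 5.79 for C23G10.11, from 4.66 to 5.55 for T22F3.11, from 4.61 to 5.12 for Y62F5A.10, from 4.50 to 5.06 for F46C5.1 and from -6.05 to -5.33 for K02E11.10. The lower bound for Y53G8AM.5 ran from 7.56 to 8.73 on the log2 scale, and it was lowest when 1 OP50 library carried the floor alone.

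With each library left out in turn, 1262 to 2297 genes were higher and 1505 to 2563 lower, 4 to 6 neighbours were higher and 3 to 11 lower, and 600 to 1010 sequence-named genes were higher and 604 to 983 lower. The lowest counts of higher genes (1262 and 600) came without MI-OMU01 replicate 2 and the lowest of lower genes (1505, and 3 neighbours) without MI-OMU01 replicate 1, while 11 neighbours were lower without OP50 replicate 1. With a filter of 5 CPM 3 neighbours were higher. With 10 genes on each side 9 of 94 (9.57%) were higher and 17 (18.1%) lower, against 14.6% and 15.2% over all genes, with the adjoining genes alone 3 were higher and 1 lower, and with a 2-fold minimum 2 were lower. The last 2 were added after the data had been seen. Total counts as library sizes shifted the median over all genes, on the log2 scale, from 0.03 to 0.16 and the share of higher calls from 48.95% to 65.3%, with 9 neighbours higher and 5 lower. The replicate numbers are shared by the groups, but no label ties the libraries that share one. With 2 libraries per group the deviations mirror each other, so their correlation of 0.18 is 1 value and does not settle a pairing. With the replicate block 2890 genes were higher and 2917 lower, and 8 neighbours were higher and 9 lower. Of 34 tested neighbours that did not pass, 8 passed under at least 1 alternative, 4 of them beside K02E11.10, of which T16A9.5, nep-21 and K02E11.4 did so with the block (adjusted p = 0.0319, 0.0403 and 0.0225). The others were Y53G8AL.2 and Y53G8AL.4 beside Y53G8AM.5, and B0334.6 and Y62F5A.9 beside Y62F5A.10. The cause of these shifts was not tested. The planned search for similar proteins was not run. Depth limits the genes with few OP50 reads, whose differences rest on 0 to 27 OP50 reads in 4 of the 6.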

Other observations

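Below the level minimum of 5 CPM, sequence-named genes with at most 2 OP50 reads stood next to each other in 2 places on chromosome IV. They were singled out after their values had been seen, so no test is given. F49C12.2, F49C12.3, F49C12.4 and F49C12.5 are consecutive protein-coding genes within 9142 bases, with 4 reads together on OP50 and 385 on MI-OMU01. C33H5.2 and C33H5.1 adjoin each other within 5642 bases, with 2 reads against 260. The nspg-11 and nspg-7.1 genes lie 15323 and 21807 bases beyond F49C12.5 and did not pass the test.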
